A study of Mus musculus with 12 samples.

Results

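The genes described here are 38 genes of cell division and DNA replication in the lungs of newborn mice. They were chosen by gene symbol from a fixed list of cyclins, mitotic regulators, replication factors and cell cycle transcription factors, and all 38 were found among the 52550 genes of the count table. Every member had at least 95 counts in each library, so all 38 were tested. Of them, 22 act in mitosis or drive the cell cycle as cyclins and CDK1 or are general markers of dividing cells, 13 act in DNA replication, and 3 are transcription factors (E2f1, E2f8 and Foxm1). The class of 22 is called mitotic below for short, though it holds the cyclin genes Ccne1 and Ccne2, which act before mitosis, and the general marker Mki67. RNA was sequenced from whole lungs of C57Bl/6J mice at postnatal day 5, in 4 groups of 3 mice with 1 library per mouse. WT mice carried both copies of Adm, the gene of the peptide hormone adrenomedullin, and Adm+/- mice carried only 1 functional copy. In each genotype, mice were injected into the peritoneum once a day on 3 days from postnatal day 3 with 6 mg/kg lipopolysaccharide of Escherichia coli O55:B5 (LPS), a bacterial cell wall component that sets off inflammation, or with the same volume of saline (PBS), and lungs were taken 6 hours after the last dose. The study uses repeated LPS in newborn mice as a model of the lung disease of preterm infants, and asks what LPS changes in the lung and whether the loss of 1 Adm copy alters it. Libraries are named below by group and by the number in their label.

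A dividing cell copies its DNA in S phase and separates the copies in mitosis. Before S phase, CDC6 and CDT1 load the ring of MCM2 to MCM7 onto origins, where it is later activated as the replicative helicase; this step is under control of E2F transcription factors. In G2 and mitosis, cyclin A and cyclin B with CDK1, the Aurora and Polo-like kinases, the spindle checkpoint and the anaphase-promoting complex drive chromosome separation, and many of their genes are repressed in resting cells by the DREAM complex and activated by FOXM1 and B-MYB. The newborn mouse lung is still growing and forming alveoli in the days studied here, and contains many dividing cells.

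Library totals ranged from 22382535 to 38062873 counts (median 28494877), and the spread between mice given below includes the counting error. Adm itself, the gene deleted on 1 copy, was at 5.21 ± 1.66 CPM (counts scaled to library size; mean ± SD of 3 mice) in WT PBS, 6.79 ± 2.03 in WT LPS, 3.69 ± 0.855 in Adm+/- PBS and 4.65 ± 1.42 in Adm+/- LPS. Its mean was lower in Adm+/- lungs under both treatments, with log2 differences of -0.50 (SE 0.32) in PBS and -0.55 (SE 0.31) in LPS, but the groups' ranges overlapped and neither difference passed the edgeR test (adjusted p = 0.999 and 0.480). The 2 libraries WT PBS replicate 5 and Adm+/- PBS replicate 6 stood apart: reads of Gm26917, a non-coding gene, made up 16.6% and 13.3% of all counts there and 5.42 to 7.40% in the other 10 libraries, and the share of protein-coding genes was 77.8% and 80.1% where the others had 84.3 to 87.6%. Values without both of them are given below, after the library pattern and with the pathway lists.

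All 38 genes had a lower fitted level after LPS in both genotypes, where 49.1% and 51.3% of all 15885 genes tested did. In WT lungs 17 of the 38 passed the test as lower (edgeR quasi-likelihood F-test, Benjamini-Hochberg adjusted p under 0.05 over all genes tested and a log2 change beyond 0.5), against 7.09% of all genes. In Adm+/- lungs also 17 of the 38 fell, against 12.2% of all genes. Of these, 14 fell in both genotypes, where 5.85% of all genes did, 3 passed only the test in WT, 3 only the test in Adm+/-, and 18 passed neither. No member was called higher, while 10.5% and 12.8% of all genes were. The median log2 change of the 38 genes was -0.74 in WT and -0.67 in Adm+/-, beside medians of 0.01 and -0.01 over all genes tested. In WT, all 3 LPS libraries lay below all 3 PBS libraries for 29 of the 38 genes (17.9% of all genes), and in Adm+/- for 23 of them (27.1%), with 21 in both (14.4%). An unadjusted edgeR p under 0.05 with a lower level was found for 32 members in WT and 26 in Adm+/-, and for 18.0% and 21.6% of all genes. In whole lungs, fewer dividing cells and less of these RNAs in each dividing cell cannot be told apart.

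**Figure D1:**
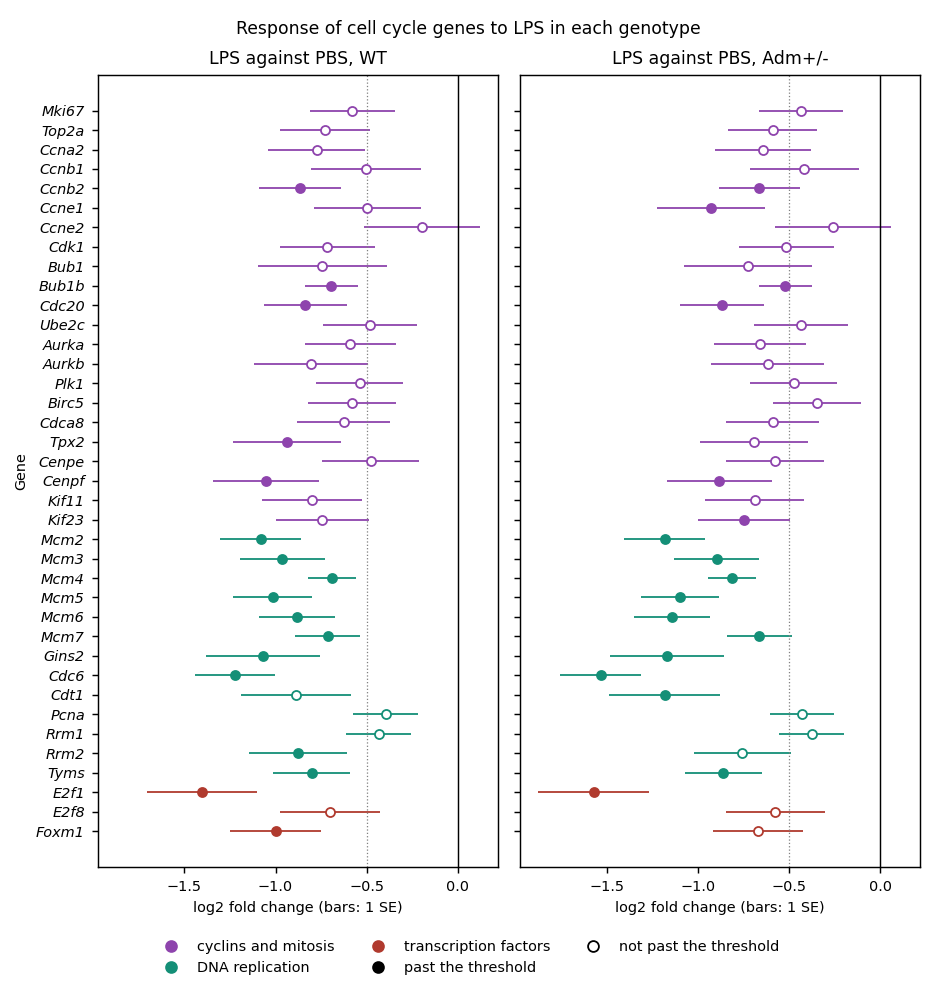
Log2 fold change of LPS against PBS (x axis) for each of the 38 genes (y axis, grouped by role), with bars of 1 SE, in WT (left) and Adm+/- lungs (right), filled where past the test. Every point lies below 0 in both genotypes, and the replication genes hold the most points past the test, 10 of 13 in each genotype.

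The count of 17 depended on single libraries, in the PBS groups as well as in the LPS groups. In WT it was 6 without WT LPS replicate 9, 9 without WT LPS replicate 11 and 28 without WT LPS replicate 10, while the genes called lower among all tested went from 1127 to 441, 1076 and 1041. In Adm+/- it was 7 without Adm+/- LPS replicate 1, 9 without Adm+/- LPS replicate 12, 8 without Adm+/- PBS replicate 6 and 32 without Adm+/- LPS replicate 2, while the genes called lower among all tested went from 1933 to 1391, 1363, 1432 and 1568. With both genotypes in 1 comparison, a fit added after the data were seen, 32 of the 38 genes fell (18 of 22, 11 of 13 and 3 of 3 by class) and none rose, where 13.0% of all genes fell. There were 5 genes, Mcm2, Mcm4, Mcm5, Cdc6 and E2f1, that were called lower in both genotypes under all 20 alternatives tried, each library left out in turn included.

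By class, of the 13 replication genes, 10 fell in WT and 10 in Adm+/-, with median log2 changes of -0.88 and -0.90. Of the 22 genes of cyclins and mitosis, 5 fell in WT and 6 in Adm+/-, with medians of -0.70 and -0.60. Of all genes 7.09% fell in WT and 12.2% in Adm+/-, in the fit of all 12 libraries, and the counts by role are set against the same shares. The difference between the classes was not tested. The mitotic counts moved most with single libraries: the 5 in WT became 1 without WT LPS replicate 9, WT LPS replicate 11 or WT PBS replicate 4, 16 without WT LPS replicate 10, 11 without Adm+/- LPS replicate 2 and 10 without Adm+/- LPS replicate 1. The 6 in Adm+/- became 0 without Adm+/- LPS replicate 1 or replicate 12, 1 without Adm+/- PBS replicate 6, 3 without Adm+/- PBS replicate 7, 2 without Adm+/- PBS replicate 8 and 17 without Adm+/- LPS replicate 2. Genes called lower among all tested also differed in those fits. In WT they numbered 441 without WT LPS replicate 9, 1076 without WT LPS replicate 11 and 1141 without WT PBS replicate 4. In Adm+/- they numbered 1391, 1363 and 1432 without Adm+/- LPS replicate 1, Adm+/- LPS replicate 12 and Adm+/- PBS replicate 6. The shares of 7.09% and 12.2% belong to the fit of all 12 libraries. Counts with a library left out are not set against them. The replication counts were 4 in WT without WT LPS replicate 9, and 6 in Adm+/- without either Adm+/- LPS replicate 1 or Adm+/- PBS replicate 6.

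Promoter sequence was compared between the classes, since both classes have known promoter elements: the CHR element and the CCAAT box in genes of mitosis, and E2F sites in genes of replication. RefSeq windows from 250 bases before to 50 bases after the start were at hand for 31 of the 38 genes, 18 of them of cyclins and mitosis and 11 of replication. For 26 of the 31 the RefSeq start lay within 100 bases of the annotated gene start. The CHR letters (TTTGAA or TTCGAA, either strand) were in 14 of the 18 mitotic windows and in 2 of the 11 replication windows, and in 21.7% of all genes' windows. E2F-like letters (TTGGCGC or TTCCCGC or TTCGCGC, either strand, with matches that can overlap each other and a CCAAT) were in 3 of the 18 and 7 of the 11, 6 of them among the 7 windows of licensing and helicase genes, and in 9.20% of all. CCAAT was in 16 of the 18 and 8 of the 11, against 41.1% of all, and a CHR together with a CCAAT was in 14 of the 18 and 2 of the 11, against 8.61% of all. These are matches of letters, not sites shown to be bound.

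**Figure D2:**
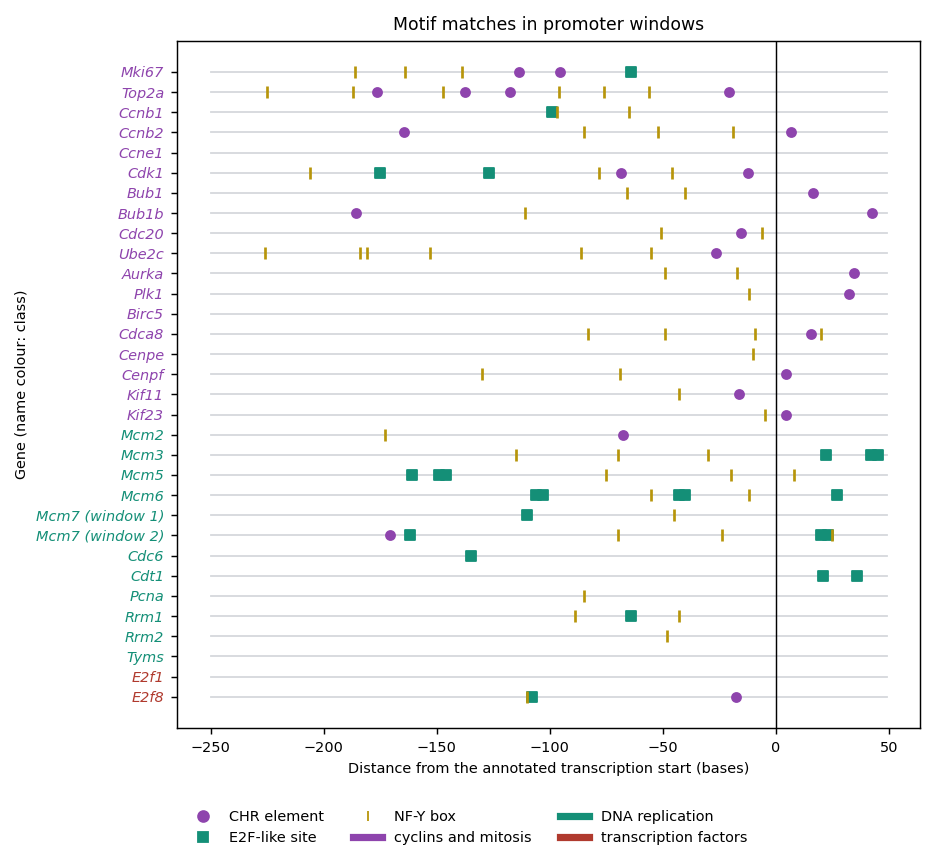
Matches to the CHR, E2F-like and CCAAT letters (the CCAAT box binds NF-Y) along the promoter windows of the 31 genes, by distance from the annotated start in bases (x axis) and gene (y axis, Mcm7 with 2 windows, name colours give the class). CHR matches lie in mitotic windows (77.8%) more than in replication windows (18.2%), and E2F-like matches mainly in replication windows.

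The sequences that show this difference are given below as the 250 bases before the RefSeq start (GRCm38.p6), 5′ to 3′ on the gene's strand, with matches to any of the motifs in capitals. The first 3 are genes of mitosis or proliferation. Cdc20 (chr4:118437344-118437593, minus strand) has the letters TTTGAA at 18 bases before the start, between CCAAT boxes at 53 and 8. Mki67 (chr7:135716380-135716629, minus strand) has CHR letters at 116 and 98 bases, an E2F-like match at 67 and CCAAT boxes at 188, 166 and 141. Bub1b (chr2:118597961-118598210, plus strand) has a CHR at 188 and a CCAAT at 113. The next pair are helicase genes with E2F-like letters. Mcm5 (chr8:75109259-75109508, plus strand) has them at 164, 152 and 149 bases, and Mcm6 (chr1:128359706-128359955, minus strand) at 109, 106, 46 and 43. Mcm2 (chr6:88898781-88899030, minus strand) is the helicase gene with a window but no E2F-like match, and has a CHR at 70 and a CCAAT at 175.
Cdc20: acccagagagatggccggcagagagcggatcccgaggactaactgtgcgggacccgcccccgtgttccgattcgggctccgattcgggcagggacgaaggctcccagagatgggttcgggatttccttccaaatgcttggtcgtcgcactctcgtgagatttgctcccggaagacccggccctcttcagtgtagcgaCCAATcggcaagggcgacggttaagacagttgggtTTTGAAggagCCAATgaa
Mki67: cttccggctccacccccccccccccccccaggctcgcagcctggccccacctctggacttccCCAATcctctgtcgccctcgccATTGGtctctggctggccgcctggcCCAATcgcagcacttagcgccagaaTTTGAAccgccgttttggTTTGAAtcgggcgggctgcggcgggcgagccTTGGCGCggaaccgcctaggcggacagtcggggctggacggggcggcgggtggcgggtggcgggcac
Bub1b: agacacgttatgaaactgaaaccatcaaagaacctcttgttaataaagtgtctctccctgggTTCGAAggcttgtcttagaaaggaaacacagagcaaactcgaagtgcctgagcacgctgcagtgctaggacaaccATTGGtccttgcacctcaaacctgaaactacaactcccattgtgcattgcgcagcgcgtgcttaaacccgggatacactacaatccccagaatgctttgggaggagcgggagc
Mcm5: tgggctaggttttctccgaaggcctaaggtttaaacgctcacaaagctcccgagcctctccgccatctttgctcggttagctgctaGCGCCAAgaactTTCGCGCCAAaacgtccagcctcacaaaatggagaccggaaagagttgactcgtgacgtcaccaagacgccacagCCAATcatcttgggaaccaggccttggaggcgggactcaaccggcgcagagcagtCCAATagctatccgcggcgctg
Mcm6: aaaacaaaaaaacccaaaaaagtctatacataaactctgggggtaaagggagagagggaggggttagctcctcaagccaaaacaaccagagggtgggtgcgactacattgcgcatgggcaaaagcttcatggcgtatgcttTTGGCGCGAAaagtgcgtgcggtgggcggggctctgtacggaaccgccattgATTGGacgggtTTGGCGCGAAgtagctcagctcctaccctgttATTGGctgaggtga
Mcm2: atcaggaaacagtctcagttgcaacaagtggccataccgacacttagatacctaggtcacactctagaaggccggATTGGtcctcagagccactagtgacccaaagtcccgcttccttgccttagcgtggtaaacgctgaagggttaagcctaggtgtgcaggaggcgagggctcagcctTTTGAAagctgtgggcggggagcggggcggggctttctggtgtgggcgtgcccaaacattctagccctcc

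Of the 9 genes of origin licensing and the helicase, 8 fell in WT and all 9 in Adm+/-, with medians of -0.96 and -1.14, and for all 9 the LPS and PBS libraries did not overlap in either genotype. Cdc6 loads the helicase onto origins. It was at 15.6, 14.0 and 18.6 CPM in WT PBS replicates 3, 4 and 5, at 5.76, 8.07 and 6.81 in WT LPS replicates 9, 10 and 11, at 24.3, 17.0 and 15.2 in Adm+/- PBS replicates 6, 7 and 8, and at 5.68, 8.13 and 5.67 in Adm+/- LPS replicates 1, 2 and 12. All 6 LPS libraries lay below all 6 PBS libraries, and the level after LPS was 42.9% of the PBS mean in WT and 34.5% in Adm+/- (log2 changes -1.22, SE 0.22, and -1.53, SE 0.22; edgeR adjusted p = 0.00338 and 0.000478). The gene lies on chr11:98907801-98923940 (mm10, plus strand).

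Mcm6, a helicase subunit and the most highly counted gene of its role (chr1:128331590-128359664, minus strand), was at 103, 108 and 150.5 CPM in WT PBS replicates 3, 4 and 5, and at 54.5, 72.6 and 68.9 in WT LPS replicates 9, 10 and 11. In Adm+/- it was at 166, 126 and 107 in PBS replicates 6, 7 and 8, and at 49.6, 74.1 and 57.2 in LPS replicates 1, 2 and 12. No LPS library reached the lowest PBS library of either genotype. Its log2 changes were -0.88 (SE 0.21) in WT and -1.14 (SE 0.21) in Adm+/- (edgeR adjusted p = 0.0129 and 0.00200), and the WT call was lost without WT LPS replicate 9 (adjusted p = 0.066). Mcm2, the subunit whose promoter is shown above without E2F-like letters, was at 68.2 to 100.1 CPM in WT PBS and 29.0 to 44.2 in WT LPS, and at 66.3 to 94.4 and 29.1 to 43.6 in Adm+/-. It fell to 47.3% and 44.0% of the PBS mean (log2 changes -1.08 and -1.18, SE 0.22 each; edgeR adjusted p = 0.00675 and 0.00234). Mcm5, whose promoter has 3 E2F-like matches before the start, had log2 changes of -1.02 and -1.10 (SE 0.21 each; 0.00748 and 0.00288).

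The other subunits fell as well in both genotypes, Mcm3 with log2 changes of -0.96 and -0.90, Mcm4 of -0.69 and -0.81, and Mcm7 of -0.71 and -0.66. The Mcm3 calls were lost without WT LPS replicate 9 (edgeR adjusted p = 0.0703) in WT and without Adm+/- PBS replicate 6 (0.0541) or Adm+/- LPS replicate 1 (0.0596) in Adm+/-, and those of Mcm7 without WT LPS replicate 9 (0.0653) or 11 (0.0517) and without Adm+/- PBS replicate 6 (0.0595), Adm+/- LPS replicate 1 (0.069) or 12 (0.0509). Mcm4 had the smallest standard error of the 38 genes (0.13 in each genotype). Gins2, a subunit of the GINS complex that works with the MCM ring, fell with log2 changes of -1.07 and -1.17. Its calls were lost without WT PBS replicate 5 (0.0998), WT LPS replicate 9 (0.137) or 11 (0.0775) in WT, and without Adm+/- PBS replicate 6 (0.062), Adm+/- LPS replicate 1 (0.0658) or 12 (0.0509) in Adm+/-. Cdt1, the partner of CDC6, fell by 1.18 (SE 0.30) in Adm+/-, where edgeR gave an adjusted p of 0.0127, and had a change of -0.89 (SE 0.30) in WT that did not pass the test (adjusted p = 0.0559). The Cdt1 call changed with several libraries: the WT change was -0.49 without WT PBS replicate 5 (0.202) and passed without WT PBS replicate 4 (0.032) or Adm+/- PBS replicate 6 (0.0379), and the call was lost in Adm+/- without Adm+/- PBS replicate 6 (0.0538) or Adm+/- LPS replicate 1 (0.0561). Reads of Mcm7 may be shared with the microRNA genes and neighbours it overlaps, and those of Gins2 with Gse1, which was at 68.0 to 237 CPM.

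**Figure D3:**
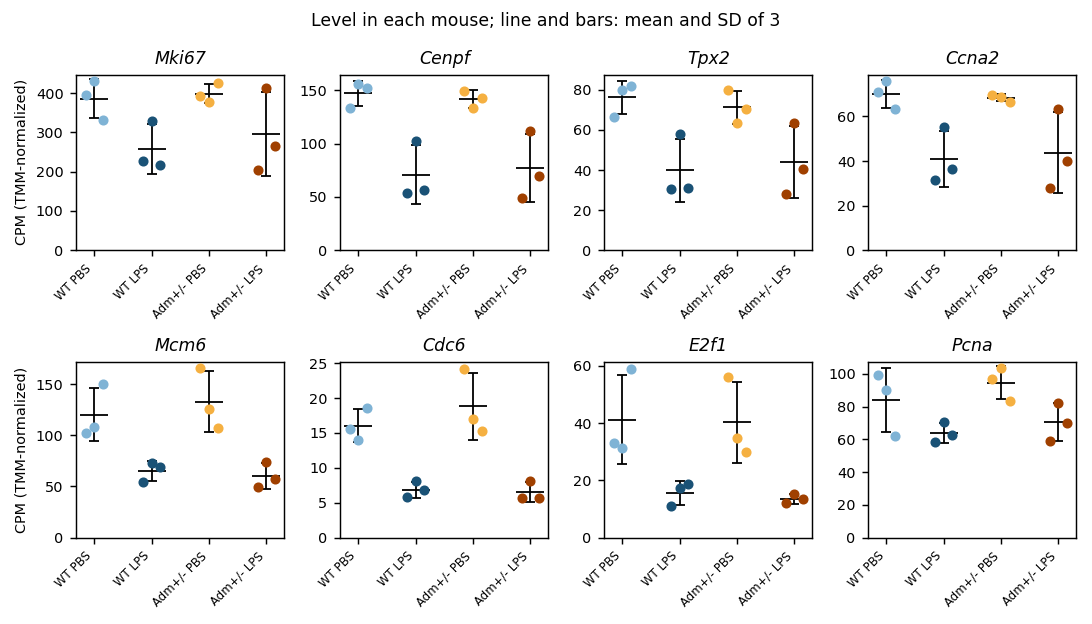
CPM (y axis) of example genes in each of the 12 libraries (points), with the mean and SD of each group of 3 mice. For Cdc6 all LPS libraries lie below all PBS libraries, while for Mki67 Adm+/- LPS replicate 2 (413 CPM) lies among the Adm+/- PBS libraries.

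Of the 4 genes of the sliding clamp and of nucleotide supply, 2 fell in WT and 1 in Adm+/- (medians -0.62 and -0.59). Pcna, the clamp that holds DNA polymerase on its template (chr2:132249162-132253314, minus strand), was at 99.4, 90.2 and 62.0 CPM in WT PBS replicates 3, 4 and 5 and at 58.4, 70.4 and 62.5 in WT LPS replicates 9, 10 and 11. WT PBS replicate 5 lay within the LPS range. In Adm+/- the values were 97.2, 104 and 83.5 in PBS replicates 6, 7 and 8 and 58.9, 82.4 and 70.2 in LPS replicates 1, 2 and 12, with no overlap. The log2 changes were -0.40 (SE 0.18) and -0.43 (SE 0.18), and neither passed the edgeR test (adjusted p = 0.127 and 0.0867). Without WT PBS replicate 5 the WT change was -0.58 and passed it (adjusted p = 0.0209). Neither change passed without any other single library, WT PBS replicate 3, the highest of its group, included.

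Ribonucleotide reductase makes the DNA building blocks. Its large subunit Rrm1 (chr7:102441695-102469771, plus strand) was at 115, 124 and 92.5 CPM in WT PBS replicates 3, 4 and 5 and at 76.6, 95.6 and 73.4 in WT LPS replicates 9, 10 and 11. In Adm+/- it was at 126, 115 and 107 in PBS replicates 6, 7 and 8 and at 69.9, 114 and 84.7 in LPS replicates 1, 2 and 12. WT LPS replicate 10 lay above WT PBS replicate 5 and Adm+/- LPS replicate 2 above Adm+/- PBS replicate 8, so the groups overlapped in both genotypes. Its changes of -0.43 and -0.38 (SE 0.18 each) did not pass the edgeR test (adjusted p = 0.102 and 0.132), and passed it in Adm+/- only without Adm+/- LPS replicate 2 (-0.59, adjusted p = 0.0285), against -0.23 without Adm+/- LPS replicate 1 (0.401). Rrm2, the small subunit, which is made mainly in S phase, fell by 0.88 (SE 0.27) in WT (adjusted p = 0.0387) and had a change of -0.76 (SE 0.27) in Adm+/- (adjusted p = 0.0513). The WT call of Rrm2 was lost without any 1 of the 3 WT PBS libraries, WT LPS replicate 9 or 11, Adm+/- PBS replicate 7 and Adm+/- LPS replicate 12 (edgeR adjusted p from 0.051 without WT PBS replicate 5 to 0.156 without WT LPS replicate 9), and the Adm+/- call was made without WT PBS replicate 5 (0.0455), WT LPS replicate 10 (0.0461) or Adm+/- LPS replicate 2 (0.00577). Tyms, thymidylate synthase, fell with log2 changes of -0.80 and -0.86 (SE 0.21 each; adjusted p = 0.0204 and 0.00959), in WT not without WT LPS replicate 9 (0.0945).

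Of the transcription factors, E2f1, which activates replication genes, fell in both genotypes (chr2:154559407-154569892, minus strand). It was at 33.2, 31.4 and 59.0 CPM in WT PBS replicates 3, 4 and 5, at 10.8, 17.2 and 18.6 in WT LPS replicates 9, 10 and 11, at 56.2, 34.6 and 29.8 in Adm+/- PBS replicates 6, 7 and 8, and at 11.9, 15.2 and 13.4 in Adm+/- LPS replicates 1, 2 and 12. Every LPS library lay below every PBS library, and the highest PBS values were those of the 2 libraries that stood apart. The LPS mean was 37.8% of the PBS mean in WT and 33.6% in Adm+/- (log2 changes -1.41 and -1.57, SE 0.30 each; edgeR adjusted p = 0.00805 and 0.0027).

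Foxm1, which activates genes of G2 and mitosis (chr6:128362967-128376146, plus strand, overlapping Tex52 and Gm44596 on the same strand), was at 60.8, 66.4 and 74.9 CPM in WT PBS replicates 3, 4 and 5 and at 24.7, 46.2 and 30.2 in WT LPS replicates 9, 10 and 11. In Adm+/- it was at 67.1, 57.9 and 61.7 in PBS replicates 6, 7 and 8 and at 27.0, 52.9 and 37.4 in LPS replicates 1, 2 and 12. The groups did not overlap, with WT LPS replicate 10 and Adm+/- LPS replicate 2 nearest to PBS. Foxm1 fell to 50.1% of the PBS mean in WT (SE of the log2 change 0.25, edgeR adjusted p = 0.0167), not without WT LPS replicate 9 (0.0787) or replicate 11 (0.0521). Its change of -0.67 (SE 0.25) in Adm+/- did not pass (adjusted p = 0.0597), and did without WT LPS replicate 9 (0.0487), WT LPS replicate 10 (0.0327) or Adm+/- LPS replicate 2 (0.019), against -0.46 without Adm+/- LPS replicate 1 (0.201). E2f8, a repressor of the E2F family, had changes of -0.70 and -0.57 (SE 0.27 each; adjusted p = 0.0858 and 0.132), and passed in WT without WT PBS replicate 5 (0.0456) or Adm+/- LPS replicate 2 (0.0457) and in Adm+/- without Adm+/- LPS replicate 2 (0.0219), against -0.33 there without Adm+/- LPS replicate 1 (0.386).

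Mki67, whose product Ki-67 marks cycling cells, had the most counts of all 38 genes and passed the test in neither genotype (chr7:135689784-135716361, minus strand). It was at 394, 430.1 and 332 CPM in WT PBS replicates 3, 4 and 5 and at 226, 330.1 and 217 in WT LPS replicates 9, 10 and 11. In Adm+/- it was at 393, 377 and 425 in PBS replicates 6, 7 and 8 and at 205, 413 and 266 in LPS replicates 1, 2 and 12. The WT groups touched without overlap, and Adm+/- LPS replicate 2 lay above 2 of the 3 Adm+/- PBS libraries. The log2 changes were -0.58 (SE 0.23) and -0.43 (SE 0.23), with edgeR adjusted p = 0.0951 and 0.179. The WT change passed without WT LPS replicate 10 (-0.80, adjusted p = 0.0434) or Adm+/- LPS replicate 2 (-0.58, 0.0429), and the Adm+/- change without Adm+/- LPS replicate 2 (-0.76, 0.0212), while without Adm+/- LPS replicate 1 the Adm+/- change was -0.23 (0.497). Top2a, topoisomerase II alpha, which untangles replicated chromosomes, had changes of -0.73 (SE 0.25) and -0.59 (SE 0.24; adjusted p = 0.0540 and 0.0886). It passed in WT without WT LPS replicate 10 (0.0158), Adm+/- LPS replicate 1 (0.0322) or Adm+/- LPS replicate 2 (0.0304), and in Adm+/- without Adm+/- LPS replicate 2 (-0.89, 0.0192), against -0.37 (0.28) without Adm+/- LPS replicate 1.

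Of the 6 genes of cyclins and CDK1, 1 fell in WT and 2 in Adm+/- (medians -0.61 and -0.58). Ccna2, cyclin A2 of S phase and G2 (chr3:36564865-36572150, minus strand, overlapping Exosc9 on the other strand), was at 71.0, 75.8 and 63.4 CPM in WT PBS replicates 3, 4 and 5, at 31.4, 55.3 and 36.2 in WT LPS replicates 9, 10 and 11, at 69.7, 68.7 and 66.6 in Adm+/- PBS replicates 6, 7 and 8, and at 27.9, 63.4 and 40.05 in Adm+/- LPS replicates 1, 2 and 12. No LPS library reached its PBS group, but WT LPS replicate 10 and Adm+/- LPS replicate 2 came near. The changes of -0.77 (SE 0.27) and -0.64 (SE 0.26) did not pass the edgeR test (adjusted p = 0.0573 and 0.0858). They passed in WT without WT LPS replicate 10 (-1.05, 0.0216), Adm+/- LPS replicate 1 (0.0325) or Adm+/- LPS replicate 2 (0.0248), and in Adm+/- without Adm+/- LPS replicate 2 (-1.01, 0.0116). In the other direction, the change was -0.62 in WT without WT LPS replicate 9 (0.214) and -0.40 in Adm+/- without Adm+/- LPS replicate 1 (0.266).

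Ccnb2, a B-type cyclin of mitosis, fell with log2 changes of -0.86 and -0.66 (SE 0.22 each; edgeR adjusted p = 0.0200 and 0.0422), from 27.6 to 39.3 CPM in WT PBS to 14.8 to 24.0 in WT LPS, and from 32.2 to 36.5 to 16.7 to 28.2 in Adm+/-. Its calls were lost without WT PBS replicate 4 (0.0615), WT LPS replicate 9 (0.0926) or 11 (0.0649) in WT, and in Adm+/- without any Adm+/- library except LPS replicate 2 (0.0747 to 0.154), WT PBS replicate 3 (0.0518) or WT LPS replicate 9 (0.0506). Ccnb1, the other B-type cyclin, had changes of -0.50 and -0.42 (SE 0.30 each), and Cdk1, the kinase that both activate, of -0.72 and -0.51 (SE 0.26 each), and none of these passed, Cdk1 only without WT LPS replicate 10 (0.0272), Adm+/- LPS replicate 1 (0.0481) or 2 (0.0337) in WT and without Adm+/- LPS replicate 2 (0.0215) in Adm+/-, where it was -0.29 without Adm+/- LPS replicate 1 (0.444). Ccne1 and Ccne2 encode the E-type cyclins that start S phase. Ccne1 fell in Adm+/- by 0.93 (SE 0.30, edgeR adjusted p = 0.0335) and had a change of -0.50 (SE 0.29, 0.241) in WT. The Adm+/- call of Ccne1 was lost without Adm+/- PBS replicate 6 (-0.61, 0.147), Adm+/- LPS replicate 1 (-0.75, 0.124) or Adm+/- LPS replicate 12 (-0.88, 0.103). Ccne2 had the smallest changes of the 38 genes, -0.20 and -0.26 (SE 0.32 each; adjusted p = 0.681 and 0.574). Its level in WT PBS replicate 5, 5.87 CPM, was the lowest of all 12 libraries, where the rest lay between 9.31 and 16.9, and it overlaps Ints8, which was at 55.8 to 68.2 CPM.

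Of the 4 genes of the spindle checkpoint and the anaphase-promoting complex, Bub1b and Cdc20 fell in both genotypes. BUBR1, the product of Bub1b (chr2:118598211-118641591, plus strand), holds back anaphase until chromosomes are attached. It was at 57.4, 63.7 and 62.2 CPM in WT PBS replicates 3, 4 and 5, at 35.7, 44.0 and 33.7 in WT LPS replicates 9, 10 and 11, at 59.6, 48.9 and 58.7 in Adm+/- PBS replicates 6, 7 and 8, and at 32.7, 46.4 and 37.4 in Adm+/- LPS replicates 1, 2 and 12. All LPS libraries lay below all PBS libraries, with a gap in WT and little room in Adm+/- between LPS replicate 2 and PBS replicate 7. It fell with log2 changes of -0.69 and -0.52 (SE 0.15 each; edgeR adjusted p = 0.00747 and 0.0196). The WT call held without each library, and the Adm+/- call was lost without Adm+/- PBS replicate 6 (0.0595), PBS replicate 8 (0.0638), LPS replicate 1 (0.0823) or LPS replicate 12 (0.0697).

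CDC20 activates the anaphase-promoting complex, and its gene (chr4:118432901-118437352, minus strand, overlapping Elovl1 on the other strand) has the CHR nearest to the start of the promoters shown. Cdc20 was at 50.1 to 62.8 CPM in WT PBS and 25.5 to 42.8 in WT LPS, and at 48.2 to 59.6 and 22.9 to 40.3 in Adm+/-. It fell with log2 changes of -0.84 and -0.87 (SE 0.23 each; edgeR adjusted p = 0.0250 and 0.0144), in WT not without WT PBS replicate 4 (0.0517), WT PBS replicate 5 (0.0561), WT LPS replicate 9 (0.115) or WT LPS replicate 11 (0.0775), and in Adm+/- not without Adm+/- LPS replicate 1 (0.062) or replicate 12 (0.0603). Bub1, a checkpoint kinase, had changes of -0.74 and -0.73 (SE 0.35 each), and Ube2c, a ubiquitin-conjugating enzyme of the complex, of -0.48 and -0.43 (SE 0.26 each), and none passed, Bub1 only without WT PBS replicate 5 (0.0468) in WT and without Adm+/- LPS replicate 2 (0.0288) in Adm+/-, where it was -0.48 without Adm+/- LPS replicate 1 (0.385).

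Of the 6 mitotic kinase and chromosomal passenger genes, 1 fell in WT and 0 in Adm+/- by edgeR, beside 7.09% and 12.2% of all genes, and these counts are no result about the group. All 6 in WT and 3 of the 6 in Adm+/- were lower at an unadjusted p under 0.05, beside 18.0% and 21.6% of all genes. Tpx2, which activates Aurora A on the spindle (chr2:152847964-152895321, plus strand, with Mir5622 inside it), was at 66.6, 80.0 and 82.0 CPM in WT PBS replicates 3, 4 and 5 and at 30.4, 57.9 and 31.1 in WT LPS replicates 9, 10 and 11. In Adm+/- it was at 79.8, 63.3 and 70.7 in PBS replicates 6, 7 and 8 and at 27.9, 63.6 and 40.7 in LPS replicates 1, 2 and 12. WT groups did not overlap, and Adm+/- LPS replicate 2 lay just above Adm+/- PBS replicate 7. Tpx2 fell by 0.94 (SE 0.30) in WT (edgeR adjusted p = 0.0431) and had a change of -0.69 (SE 0.29) in Adm+/- (0.0958), which passed without Adm+/- LPS replicate 2 (-1.05, 0.0228) and was -0.45 without Adm+/- LPS replicate 1 (0.293). The WT call was lost without WT PBS replicate 4 or 5 (0.0841 each), WT LPS replicate 9 (0.172), WT LPS replicate 11 (0.125), Adm+/- PBS replicate 7 (0.0558), Adm+/- PBS replicate 8 (0.0596) or Adm+/- LPS replicate 12 (0.0612). The genes of the kinases Aurora A (Aurka, -0.59 and -0.66), Aurora B (Aurkb, -0.81 and -0.62) and PLK1 (Plk1, -0.54 and -0.47) and of the passenger proteins survivin (Birc5, -0.58 and -0.35) and borealin (Cdca8, -0.63 and -0.59) did not pass in either genotype. Without WT LPS replicate 10 all 5 passed in WT (0.0214 to 0.0375), and without Adm+/- LPS replicate 2 Aurka (0.0215), Plk1 (0.0363) and Cdca8 (0.0236) passed in Adm+/-, Aurka also without WT LPS replicate 10 (0.0443). Without Adm+/- LPS replicate 1 the changes of the 5 in Adm+/- lay between -0.42 (Aurka) and -0.15 (Birc5), and without WT LPS replicate 9 those in WT between -0.64 (Aurkb) and -0.44 (Birc5).

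Of the 4 genes of centromere proteins and kinesins, 1 fell in WT and 2 in Adm+/-. Cenpf, a large kinetochore protein (chr1:189640606-189688086, minus strand, overlapping Gm37239 on the other strand), was at 133, 156 and 152 CPM in WT PBS replicates 3, 4 and 5, at 53.4, 103 and 56.6 in WT LPS replicates 9, 10 and 11, at 149, 133 and 143 in Adm+/- PBS replicates 6, 7 and 8, and at 49.3, 112 and 69.2 in Adm+/- LPS replicates 1, 2 and 12. No LPS library overlapped with PBS, and in each genotype 1 LPS library lay well above the other two. Cenpf fell with log2 changes of -1.05 and -0.88 (SE 0.29 each; edgeR adjusted p = 0.0249 and 0.0373). The WT call was lost without WT PBS replicate 4 (0.0545), WT LPS replicate 9 (0.114) or WT LPS replicate 11 (0.0785), and the Adm+/- call without Adm+/- PBS replicate 6 (0.0886), 7 (0.0652) or 8 (0.0817) or Adm+/- LPS replicate 1 (0.128) or 12 (0.117). Kif23, a kinesin of cell separation, fell in Adm+/- (-0.75, adjusted p = 0.0439) with a change of -0.74 in WT (0.0573). The Adm+/- call of Kif23 was lost without any Adm+/- library except LPS replicate 2 (0.0808 to 0.147), or without WT PBS replicate 3 (0.0507), WT PBS replicate 4 (0.053) or WT LPS replicate 11 (0.0574), and the WT call was made without WT PBS replicate 5 (0.0386), WT LPS replicate 10 (0.0225) or Adm+/- LPS replicate 1 (0.0352) or 2 (0.0447). Kif11, the spindle-pole kinesin (-0.80 and -0.69), and Cenpe, a kinetochore motor (-0.48 and -0.58), did not pass, except for Kif11 in WT without WT LPS replicate 10 (0.0198), Adm+/- LPS replicate 1 (0.0295) or 2 (0.0303), and for both in Adm+/- without Adm+/- LPS replicate 2 (0.0151 and 0.0277), against changes of -0.44 and -0.33 there without Adm+/- LPS replicate 1.

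Per kilobase of exon, the most abundant of the 38 genes in WT PBS was Mki67, at 38.3 ± 4.93 CPM per kb (SD, n = 3), then Pcna (34.9 ± 8.13), Top2a (31.4 ± 3.32), Cdc20 (30.5 ± 3.44) and Mcm3 (26.2 ± 7.57). Each of these lay within the SD of its neighbour in the order. The lowest were Cdc6 (3.07 ± 0.448), Ccne1 (3.23 ± 0.144) and Ccne2 (3.48 ± 1.62), which also did not differ beyond their spread. After LPS, Pcna stood first in both genotypes (26.6 ± 2.55 in WT and 29.4 ± 4.88 in Adm+/-) and Mki67 second (25.6 ± 6.24 and 29.3 ± 10.6), with no difference beyond the SD.

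The libraries of each LPS group spread widely. Measured as the median over the 38 genes of the log2 CPM minus the mean of the 6 PBS libraries, WT LPS replicates 9, 10 and 11 stood at -1.11, -0.36 and -0.87, and Adm+/- LPS replicates 1, 2 and 12 at -1.25, -0.20 and -0.77. The 6 PBS libraries lay between -0.07 and 0.14, and the median over all genes lay between -0.01 and 0.02 in every library. WT LPS replicate 10 and Adm+/- LPS replicate 2 were thus nearest to PBS in their groups. These libraries were picked by these same genes, so the counts that follow describe the spread and are no test of it. WT LPS replicate 10 was the highest WT LPS library for 35 of the 38 genes (33.4% of all genes), and Adm+/- LPS replicate 2 the highest of its group for 38 of 38 (36.7% of all genes).

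By class, the 22 genes of cyclins and mitosis were displaced by a median of -0.29 in WT LPS replicate 10 and -0.13 in Adm+/- LPS replicate 2, the 13 replication genes by -0.67 and -0.58, the 9 helicase and licensing genes among these by -0.75 and -0.72 and the 4 genes of the clamp and nucleotide supply by -0.43 and -0.13. In the other LPS libraries the mitotic genes stood at -1.05 and -0.87 (WT LPS replicates 9 and 11) and at -1.18 and -0.65 (Adm+/- LPS replicates 1 and 12), and the replication genes at -1.17, -0.85, -1.31 and -0.88. The PBS libraries that make up the reference also differed by class. The helicase and licensing genes stood at 0.29 in WT PBS replicate 5 and 0.41 in Adm+/- PBS replicate 6. In the other PBS libraries they lay between -0.24 and -0.06. The mitotic genes lay between -0.13 and 0.13 in the PBS libraries. The part of this reference in the difference between the classes was not tested. These are descriptions of single mice with no test.

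**Figure D4:**
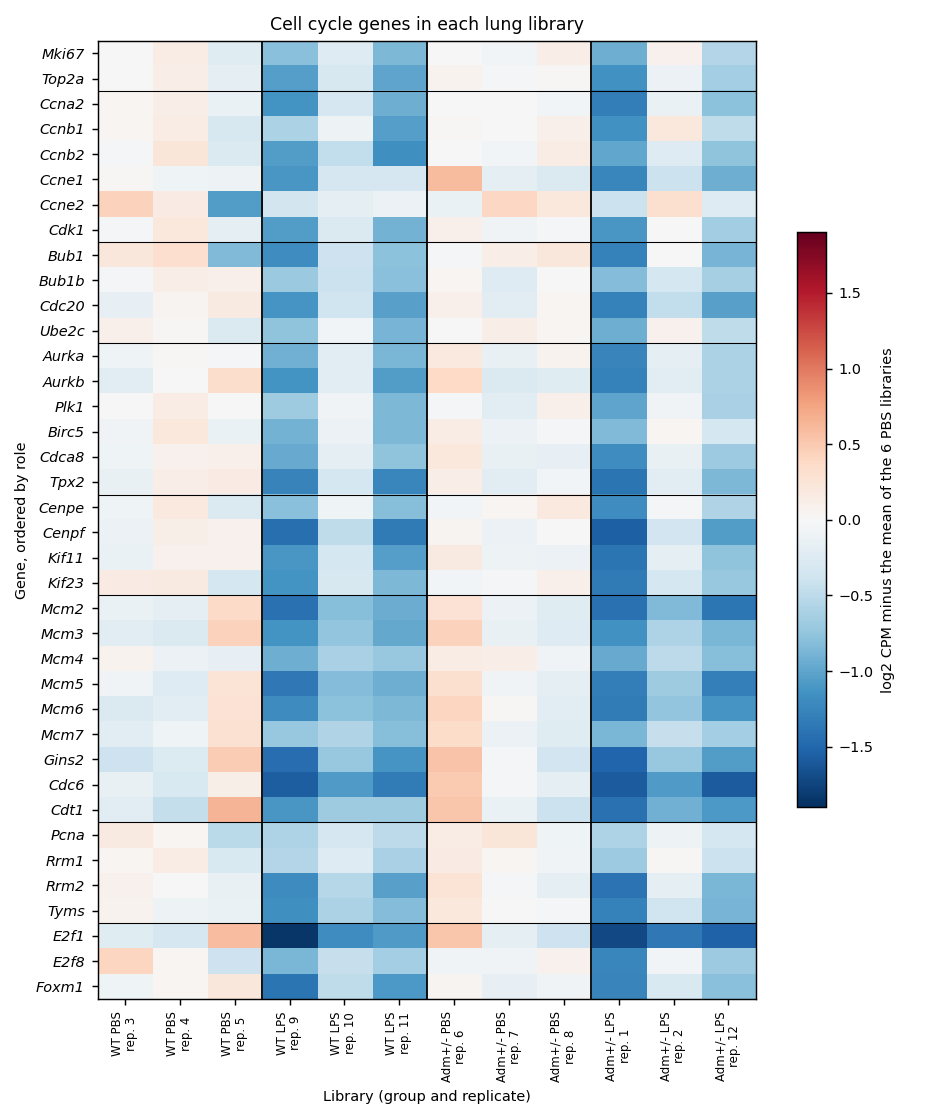
Log2 CPM of each of the 38 genes minus its mean over the 6 PBS libraries (colour), by library (columns) and gene (rows, grouped by role). The LPS columns are below the PBS mean throughout most rows, least in WT LPS replicate 10 (median -0.36) and Adm+/- LPS replicate 2 (median -0.20).

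Base composition moved with the levels in the 2 PBS libraries that stood apart. Over 15875 genes, the displacement of WT PBS replicate 5 from the other libraries of its group went with the GC content of the longest transcript (Spearman's rho = 0.649 across genes, which are not independent), as did that of Adm+/- PBS replicate 6 (0.561). Over the 38 genes alone rho was 0.63 and 0.522. In WT LPS replicate 10 and Adm+/- LPS replicate 2 it was 0.179 and -0.25 over all genes, and -0.107 and -0.435 over the 38. The median GC content was 47.9% for the 38 genes (36.3 to 58.3%), 51.9% for the helicase and licensing genes, 47.6% for cyclins and mitosis and 49.96% for all genes. Ccne2, the gene with the lowest GC content (36.3%), was displaced by -1.36 in WT PBS replicate 5, and E2f1, with the highest (58.3%), by 0.87. With both libraries left out, 14 of the 38 genes were called lower in WT and 11 in Adm+/-, in place of 17 in each. Among all genes tested 871 and 1871 were called lower, in place of 1127 and 1933. In WT the calls of Cdc20 (-0.76, edgeR adjusted p = 0.0602), Tpx2 (-0.89, 0.0885), Cenpf (-1.03, 0.0542), Gins2 (-0.75, 0.0613) and Rrm2 (-0.94, 0.0515) were lost and those of Kif23 (-0.89, 0.0447) and Pcna (-0.58, 0.0234) made. In Adm+/- the calls of Ccnb2 (-0.68, 0.0524), Ccne1 (-0.60, 0.122), Cenpf (-0.84, 0.0766) and Kif23 (-0.77, 0.0525) were lost, and Bub1b and Mcm7 (both -0.47) fell short of the fold minimum. E2f1 was still called, with smaller changes of -1.06 and -1.25 (adjusted p = 0.008 and 0.00163), and the change of Cdt1 in WT was -0.49 (0.0839). The part of base composition in the LPS comparisons was not tested beyond this.

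**Figure D5:**
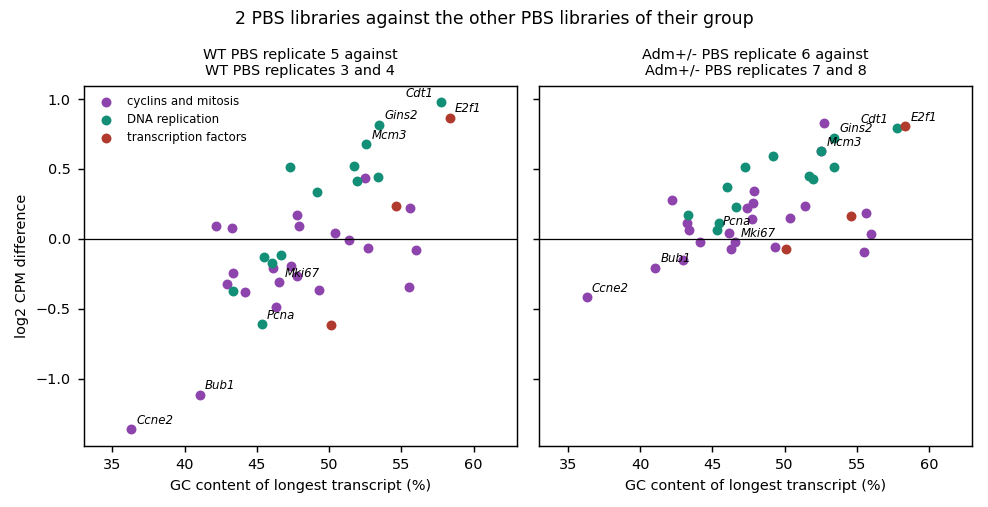
Displacement of log2 CPM from the other libraries of the same group (y axis) against the GC content of the longest transcript in percent (x axis), for the 38 genes in WT PBS replicate 5 (left) and Adm+/- PBS replicate 6 (right), coloured by class. Genes with more GC sit higher (rho 0.63 and 0.522), from Ccne2 at -1.36 to Cdt1 at 0.98 in WT PBS replicate 5.

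No genotype comparison was called for any of the 38 genes by edgeR. The difference between the LPS changes (Adm+/- minus WT) was called for 0 of the 38, where 0.145% of all genes were called (23 lower, 0 higher), and 0 of the 38 had an unadjusted p under 0.05, where 7.85% of all genes did. DESeq2 and limma-voom also called 0 of the 38. The differences ranged from -0.43 for Ccne1 (95% interval -1.39 to 0.52) to 0.33 for Foxm1 (-0.48 to 1.14), with a median of 0.05, and 16 of 38 lay below 0, where 51.2% of all genes did. For Mki67 the difference was 0.14 with an interval from -0.61 to 0.90, and for Cdc6 -0.31 with an interval from -1.02 to 0.40. Differences as large as the LPS changes themselves lie within some of these intervals, so the data do not show that the genotypes respond alike.

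Between Adm+/- and WT in PBS, edgeR called 0 of the 38 genes (0% of all genes), with 0 at an unadjusted p under 0.05 (2.17% of all genes). The largest differences either way were 0.23 for Cdc6 (SE 0.21, 95% interval -0.27 to 0.72) and -0.13 for Bub1b (SE 0.15, -0.47 to 0.20). In LPS, edgeR also called 0 of the 38 (2.05% of all genes), with 0 at an unadjusted p under 0.05 (14.3% of all genes), and the differences ran from -0.32 for Cdt1 (SE 0.30, -1.02 to 0.38) to 0.24 for Ccnb2 (SE 0.22, -0.28 to 0.75). DESeq2 and limma-voom called 0 of the 38 in both. The medians were 0.03 in PBS and 0.07 in LPS.

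Other genes of the same processes were also lower after LPS. Of 66 further spindle, kinetochore and chromosome genes, 21 fell in WT and 15 in Adm+/-, none rose by edgeR or had a fitted change above 0, and the medians were -0.72 and -0.66. Among all genes 7.09% fell and 10.5% rose in WT, and 12.2% and 12.8% in Adm+/-. Among them Ncaph (-0.86 and -0.83; edgeR adjusted p = 0.00776 and 0.00552) and Ncapd2 (-1.05 and -0.82; 0.018 and 0.0362), both of the condensin complexes that compact chromosomes, and Cenpm, a centromere protein (-1.37 in both; 0.0197 and 0.013), fell in both genotypes. Kif4, a chromosome kinesin, fell in WT (-0.90, 0.0197), and its change in Adm+/- (-0.62) did not pass (0.0619). The calls of Ncaph held without each library. Those of Ncapd2 were lost without WT LPS replicate 9 (0.0853) or 11 (0.053) and without Adm+/- PBS replicate 6 (0.122) or 8 (0.0696) or Adm+/- LPS replicate 1 (0.133) or 12 (0.107), those of Cenpm without WT PBS replicate 5 (0.0589) or WT LPS replicate 9 (0.0868) and without Adm+/- PBS replicate 6 (0.0544) or Adm+/- LPS replicate 1 (0.0562) or 12 (0.053), and that of Kif4 without WT PBS replicate 4 (0.0504), WT LPS replicate 9 (0.0937) or 11 (0.0607), while Kif4 passed in Adm+/- without WT LPS replicate 10 (0.041) or Adm+/- LPS replicate 2 (0.0128). The count of 21 in WT was 1 without WT LPS replicate 9, 2 without WT LPS replicate 11, 5 without WT PBS replicate 4, 11 without WT PBS replicate 3, 10 without Adm+/- LPS replicate 12, 12 without Adm+/- PBS replicate 7 or 8, 37 without WT LPS replicate 10, 35 without Adm+/- LPS replicate 1 and 32 without Adm+/- LPS replicate 2. The count of 15 in Adm+/- was 1 without Adm+/- LPS replicate 1, 2 without Adm+/- LPS replicate 12 or Adm+/- PBS replicate 6, 5 without Adm+/- PBS replicate 8, 8 without Adm+/- PBS replicate 7, 45 without Adm+/- LPS replicate 2, 27 without WT LPS replicate 10 and 24 without WT PBS replicate 5. Without both WT PBS replicate 5 and Adm+/- PBS replicate 6 the counts were 11 and 7, where 871 and 1871 of all genes tested were called lower. Of all genes, 441, 1076, 1041 and 1141 were called lower in WT without WT LPS replicates 9, 11 and 10 and WT PBS replicate 4. In Adm+/-, 1391, 1363, 1568 and 1432 were called lower without Adm+/- LPS replicates 1, 12 and 2 and Adm+/- PBS replicate 6.

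Of 56 further genes of the replication fork, origins and nucleotide supply, 26 fell in WT and 37 in Adm+/-, none rose, and the medians were -0.66 and -0.68, beside the same 7.09% and 12.2% of all genes that fell and 10.5% and 12.8% that rose. Rfc3, a subunit of the clamp loader, fell with log2 changes of -0.80 and -0.69 (edgeR adjusted p = 0.00175 and 0.00211), Pola1, the catalytic subunit of the polymerase that starts strands, with -0.98 and -0.94 (0.00261 and 0.00162), and Chaf1b, a histone chaperone of new DNA, with -1.11 and -1.04 (0.00789 and 0.0069). Mcm8, a helicase related to the MCM ring, fell with log2 changes of -0.74 and -0.84 (0.0144 and 0.00468), in WT not without WT LPS replicate 9 (0.0652). The count of 26 was 3 without WT LPS replicate 9, and that of 37 was 14 without Adm+/- LPS replicate 1, 17 without Adm+/- LPS replicate 12 and 15 without Adm+/- PBS replicate 6. In the same fits the genes called lower among all tested numbered 441 in place of 1127 in WT. In Adm+/- they numbered 1391, 1363 and 1432 in place of 1933. Without both WT PBS replicate 5 and Adm+/- PBS replicate 6 the counts were 31 and 26, where 871 and 1871 of all genes tested were called lower.

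Of 18 genes of the E2F, RB, DREAM and MYBL2 group, 2 fell in WT (E2f3, -0.52, and Mybl2, the gene of B-MYB, -0.84; edgeR adjusted p = 0.0133 and 0.0455) and 1 in Adm+/- (Rbl1, the gene of p107, -0.74, 0.0259), with medians of -0.05 and -0.15. Among all genes 7.09% and 12.2% fell, so these shares are near the background and are no result about the group. The counts were 0 in WT without WT LPS replicate 9, 1 without WT PBS replicate 4 or 5, Adm+/- PBS replicate 7 or 8, Adm+/- LPS replicate 12 or WT LPS replicate 11, and in Adm+/- 0 without Adm+/- LPS replicate 1 or Adm+/- PBS replicate 6 or 7, 4 without Adm+/- LPS replicate 2 and 2 without Adm+/- PBS replicate 8. By gene, E2f3 was also lost in WT without WT PBS replicate 3 (-0.42, short of the fold minimum) and passed in Adm+/- without Adm+/- LPS replicate 2 (-0.61), as did Mybl2 (-0.94), while Rbl1 was lost in Adm+/- without Adm+/- LPS replicate 12 (edgeR adjusted p = 0.0924) and passed in WT without Adm+/- LPS replicate 2 (0.0403).

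Of 10 G1 cyclin and CDK genes with their activators, 4 fell and 1 rose in WT, and 6 fell and 1 rose in Adm+/-. Among all genes 7.09% fell and 10.5% rose in WT and 12.2% and 12.8% in Adm+/-, so 1 of 10 higher is the background share. The gene that rose in both was Myc, a growth-promoting transcription factor, at 14.1, 14.3 and 13.0 CPM in WT PBS replicates 3, 4 and 5, at 30.5, 22.2 and 15.7 in WT LPS replicates 9, 10 and 11, at 15.2, 13.9 and 13.0 in Adm+/- PBS replicates 6, 7 and 8, and at 39.7, 38.5 and 32.3 in Adm+/- LPS replicates 1, 2 and 12. It rose by 0.72 and 1.39 (SE 0.20 each; edgeR adjusted p = 0.0256 and 0.000474), in WT not without WT PBS replicate 4 (0.0519), WT PBS replicate 5 (0.0592) or WT LPS replicate 9 (0.125). Its relative Mycn fell with log2 changes of -1.80 and -1.62 (adjusted p = 0.00655 and 0.00642), from 13.4 to 40.7 CPM in WT PBS to 5.21 to 8.36 in WT LPS, and from 22.0 to 37.4 to 7.59 to 10.1 in Adm+/-. Cdk4 (-0.67 and -0.64; 0.00418 and 0.00289) and Ccnd2 (-0.67 and -0.58; 0.0107 and 0.0139), a G1 kinase and its cyclin, also fell, Ccnd2 not without WT LPS replicate 9 (0.0522) in WT or Adm+/- LPS replicate 1 (0.0612) in Adm+/-. The 4 that fell in WT were 2 without WT LPS replicate 9, the 6 in Adm+/- were 3 without Adm+/- LPS replicate 1, none rose in WT without either WT PBS replicate 4 or 5 or without WT LPS replicate 9, and 2 rose in Adm+/- without Adm+/- LPS replicate 12.

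Of 20 CDK inhibitor and growth arrest genes, 5 rose and 1 fell in WT, and 7 rose and 1 fell in Adm+/-. Among all genes 10.5% rose and 7.09% fell in WT and 12.8% and 12.2% in Adm+/-, so the 1 that fell is no more than the background. Cdkn1a, the gene of the CDK inhibitor p21, was at 28.5, 38.3 and 39.97 CPM in WT PBS replicates 3, 4 and 5, at 142, 114 and 75.2 in WT LPS replicates 9, 10 and 11, at 31.9, 28.2 and 23.4 in Adm+/- PBS replicates 6, 7 and 8, and at 126, 135 and 117 in Adm+/- LPS replicates 1, 2 and 12. All LPS libraries lay above all PBS libraries, and Adm+/- LPS replicate 2 was as high as its group. It rose by 1.64 and 2.18 (SE 0.22 each; edgeR adjusted p = 0.000641 and 7.9e-05). Gas1, a growth arrest gene (1.14 and 1.26), Trp53inp1, a target of p53 (1.42 and 1.52), and Btg1, an antiproliferative gene (0.52 and 0.94), rose in both, Btg1 in WT at an adjusted p of 0.0497 that was kept only without WT PBS replicate 3 or 4 and lost without each of the other 10 libraries (0.0539 to 0.206). The 5 that rose in WT were 3 without WT LPS replicate 9.

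Markers of some other cell types also differed with LPS. As background, 10.5% of all genes rose and 7.09% fell in WT, and 12.8% rose and 12.2% fell in Adm+/-. Of 7 neutrophil markers, all 7 rose in both genotypes, among them the most highly counted, S100a9 (4.71 and 5.49) and S100a8 (5.17 and 5.86), and their summed level went from 26.2 to 132 CPM in the 6 PBS libraries to 1092 to 1974 in the 6 LPS libraries. All 7 tested markers of granulocyte precursors, cells that themselves divide in bone marrow, rose too, and the 9 on the list summed to 14.6 to 49.4 CPM in PBS and 302 to 802 in LPS. Of 8 monocyte and macrophage markers, 7 rose in WT and 6 in Adm+/-, with sums of 1010 to 1266 CPM in PBS and 1603 to 2220 in LPS. Of 9 endothelial markers, 2 fell in WT and 3 in Adm+/-, with sums of 3153 to 3909 CPM in PBS and 2659 to 3196 in LPS, and Cdh5 and Pecam1, which define the type, did not pass. Of 9 fibroblast markers, 2 fell and 1 rose in WT and 3 fell in Adm+/-, with sums of 16144 to 17315 CPM in 4 PBS libraries, 44668 and 29166 in WT PBS replicate 5 and Adm+/- PBS replicate 6, and 11378 to 15917 in LPS. With 9 genes on a list, 1 call either way is close to the background share. The part of these cell types in the lower levels of the division genes was not tested.

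Markers of tissues outside the alveolar lung were high in some libraries. Of 8 tested skeletal muscle markers, 8 rose in WT and 1 in Adm+/-. The 9 on the list summed to 1368, 1293 and 481 CPM in WT LPS replicates 9, 10 and 11, and to 16.6 to 47.7 in the other 9 libraries. Of 8 tested squamous epithelium markers, 7 rose in WT, and the 9 on the list summed to 2978, 25.4 and 1521 CPM in WT LPS replicates 9, 10 and 11, and to 1.18 to 41.03 in the other 9 libraries. In WT LPS the library lowest in squamous markers, replicate 10, was the one with division genes nearest to PBS. The muscle sum did not follow this order, as it was lowest in replicate 11. In Adm+/- LPS, where the squamous sums were 41.03, 10.7 and 4.70 in replicates 1, 2 and 12, the median of the 38 genes lay at -1.25, -0.20 and -0.77. The part of these tissues in the library pattern was not tested. Within each LPS group the neutrophil sum (1974, 1092 and 1299 CPM in WT LPS replicates 9, 10 and 11, and 1161, 1113 and 1362 in Adm+/- LPS replicates 1, 2 and 12) and the monocyte and macrophage sum (2123, 1603 and 2220, and 2164, 1633 and 1880) were lowest in WT LPS replicate 10 and Adm+/- LPS replicate 2, the libraries with division genes nearest to PBS, and the part of this in the library pattern was not tested. The granulocyte precursor sum was lowest in WT LPS replicate 10 (802, 412 and 445) but not in Adm+/- LPS replicate 2 (302, 375 and 376). Of the other lists, 0 of 8 type II pneumocyte markers were called in WT and 2 rose and 1 fell in Adm+/-, and 1 and 2 of 7 type I pneumocyte markers rose. Of 7 smooth muscle and pericyte markers 1 fell in WT, of 6 T cell markers 3 fell in Adm+/-, and of 5 thymocyte markers 1 rose and 1 fell in WT and 2 fell in Adm+/-. These are lists of few genes with counts of 1 to 3, and no change of these cell types is read from them. None of the B cell and erythroid markers tested were called by edgeR in either genotype.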

How the data were processed

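Whole-lung RNA of 12 mice (4 groups of 3) was sequenced from rRNA-depleted, directional libraries. According to the study's methods and the submitters' processing notes, the authors trimmed reads with Trim Galore, aligned them to mm10 with HISAT2 and counted them per Gencode gene with featureCounts. The deposited values were raw counts. The Gencode release and the strand option were not given in the sources used here, so reads of overlapping genes on opposite strands could not be told apart with certainty.

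Libraries were grouped by the labels. Counts of 15885 protein-coding genes that passed filterByExpr were tested with edgeR 4.0.16 (R 4.3.3), with TMM normalization, 1 coefficient per group and the quasi-likelihood F-test (8 residual degrees of freedom, two-sided). Calls needed a Benjamini-Hochberg adjusted p under 0.05 and an absolute log2 fold change above 0.5. CPM were TMM-normalized, and log2 CPM used a prior count of 2. p-values measure the spread between these mice. DESeq2 1.42.0, limma-voom (limma 3.58.1), other filters and scalings, and leaving out each library were alternatives. The scripts were tested on simulated data.

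The 38 members and all lists were chosen with earlier results of these data known, and lists were described by counts and medians. All members are accounted for. Values in every library were given for the gene with the highest mean count in each role and for a few more members that show a comparison, and in the pathway lists genes past the threshold with the smallest p were named. Positions, lengths and GC content came from Gencode M21, which matched 52403 of 52550 genes (99.7%), and promoters from RefSeq (GRCm38.p6). No pair of libraries held identical values: within groups, counts differed by 14.6 to 158 in chi-square per degree of freedom over 12 pairs.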

Additional observations from a re-analysis of the deposited data

How the results depend on the processing

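Over the 20 alternatives, 1520 fitted LPS changes of the 38 genes ranged from -1.75 to 0.11 and 1 lay above 0, that of Ccne2 in WT (-0.53 to 0.11 with each library left out, the last without WT PBS replicate 3). The genotype difference of Ccnb2 in LPS ran from -0.0059 without Adm+/- LPS replicate 2 to 0.48. Calls were the same throughout for 9 members in WT and 12 in Adm+/-. With each library left out in turn, members called lower numbered 6 to 28 in WT and 7 to 32 in Adm+/-, cyclins and mitosis 1 to 16 and 0 to 17, and replication genes 4 to 11 and 6 to 12. Non-overlapping members numbered 29 to 38 in WT (38 without WT PBS replicate 5). In Adm+/- they numbered 23 to 38 (38 without Adm+/- LPS replicate 2, the highest of its group for all of them), and those of cyclins and mitosis 10 to 22. Groups separate more easily with a library left out, and the share of all genes in these reduced sets was not computed. Nothing is read from the higher counts. The 5 mitotic calls in WT were 11 by DESeq2, 9 by limma-voom, 2 with only the libraries compared and 3 without both WT PBS replicate 5 and Adm+/- PBS replicate 6. Without these 2 libraries the Adm+/- calls were 1 for mitosis and 11 for all members. With both genotypes together, added after the data were seen, calls were 18 for mitosis and 32 for all members. The further spindle genes called lower numbered 36 in WT and 29 in Adm+/- by DESeq2, 25 and 31 by limma-voom, and 4 and 28 with only the libraries compared. The further replication genes numbered 34 and 38, 27 and 39, and 14 and 36 in the same order. Among all genes tested, 1394 and 2070 were called lower by DESeq2 and 1112 and 1925 by limma-voom. With only the libraries compared these were 348 and 2251. The cause of these changes was not tested, beyond the smaller number of samples where libraries were left out.

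Over all genes, the difference in LPS effect was called for 0 genes as higher and 23 as lower by edgeR, 46 and 122 by DESeq2 and 0 and 1 by limma-voom, with 0 to 2 higher and 5 to 63 lower when each library was left out, and the genotype effect in LPS for 52 and 273 by edgeR, 191 and 612 by DESeq2 and 74 and 211 by limma-voom, with 6 to 133 higher and 73 to 476 lower when each library was left out. The LPS effect in WT was called for 804 higher and 348 lower with only the libraries compared (1664 and 1127 with all 12), and for 1002 (without WT LPS replicate 9) to 1699 higher and 441 (also without WT LPS replicate 9) to 1448 lower when each library was left out. No paired analysis was possible because the groups share no replicate numbers. With 3 mice per group, intervals on genotype differences are wide.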
